A study of Homo sapiens with 9 samples.

Results

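The genes described here carry symbols made of LINC and a number, the name given to long intergenic noncoding RNAs. Members were chosen from the measured values themselves: a LINC symbol was kept when its FPKM was above 0 in at least 2 of the 9 libraries, without regard to dose. This rule kept 103 of 142 LINC symbols, out of 23284 gene symbols in all. The libraries came from HT-29, an established human colon cancer cell line of epithelial origin, and each was made from purified mRNA of a separate culture. Cultures received 5-aza-deoxycytidine (5-Aza) at 5 µM or at 10 µM for 5 days, or dimethyl sulfoxide, the vehicle, as the 0 µM control, with 3 cultures per dose. All groups share the cell line and the medium, and they differ in the dose alone.

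A long noncoding RNA is transcribed and often spliced and polyadenylated like a messenger RNA, but is not known to be translated. Such RNAs are usually less abundant and more restricted to particular cell types than messenger RNAs. The LINC number is a provisional name, and many symbols were later replaced once a function, a host gene or a small protein was recognised. 5-Aza is incorporated into DNA and traps DNA methyltransferases, so that methylation is lost as cells divide, and genes silenced by promoter methylation can be transcribed again.

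The FPKM values are on a scale of their own, on which 1 fragment on a transcript of 1000 nucleotides was worth between 376 and 969 FPKM. On a transcript of that length a value near 1000 FPKM thus rests on a few fragments, and on a longer one on more. The libraries held an estimated 16983683 to 31855451 fragments in the control, 29892378 to 34992041 at 5 µM and 12832936 to 27765509 at 10 µM. A value of 0 is described as listed at 0 and not as absence. MALAT1, an abundant nuclear long noncoding RNA, stood at 34319500 FPKM and 36190100 FPKM in control replicates 1 and 2 and was listed at 0 in the other 7 libraries. The 10 colon epithelial markers were above 0 in all 9 libraries, including EPCAM and CDX2. Their summed FPKM was 81664592 to 98523588 in the control, 31429946 to 35542721 at 5 µM and 25534439.7 to 45025677 at 10 µM. The 10 markers of blood, vessel and connective tissue cells summed to 25029.7 to 35394, 90889 to 100909 and 47157 to 56142 FPKM in the same order. Among them PECAM1, VWF, COL1A1 and LUM were above 0 in all 9 libraries, with COL1A1 between 4936 and 44478 FPKM and LUM between 16717 and 48553 FPKM, while DCN and HBB were listed at 0 in 7 libraries and CD3E in 5. The part of either marker list in the results was not tested.

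More members were above 0 after treatment. The control libraries had 64, 63 and 74 members above 0, the 5 µM libraries 91, 83 and 93, and the 10 µM libraries 78, 78 and 83. Every treated library was above every control library, and the 5 µM and 10 µM groups touched at 83. The means were 67.0 ± 6.08 (SD, n = 3), 89.0 ± 5.29 (SD, n = 3) and 79.7 ± 2.89 (SD, n = 3). At a limit of 1000 FPKM the order was kept, with 51, 51 and 53 members in the control, 69, 66 and 67 at 5 µM and 61, 58 and 61 at 10 µM. These numbers are a description without a test, because detection is what chose the members.

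At 0, 5 and 10 µM the mean estimates were 24813772, 32006780 and 19599144 fragments, so the 5 µM group was the deepest and had the most members above 0, while the 10 µM group was the shallowest and had more than the control. The part of depth in detection was not tested. The 10 µM library with the lowest estimate, 12832936 fragments, had 78 members above 0, and the deepest control library, with 31855451 fragments, had 74. Over all 23284 symbols the share above 0 followed the same order, with 70.3% to 72.8% in the control, 80.6% to 81.4% at 5 µM and 73.5% to 75.6% at 10 µM. Detection of the LINC members therefore moved in the same order as that of all genes. In bulk RNA, fewer cells with a transcript and less of it per cell cannot be told apart.

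**Figure D1:**
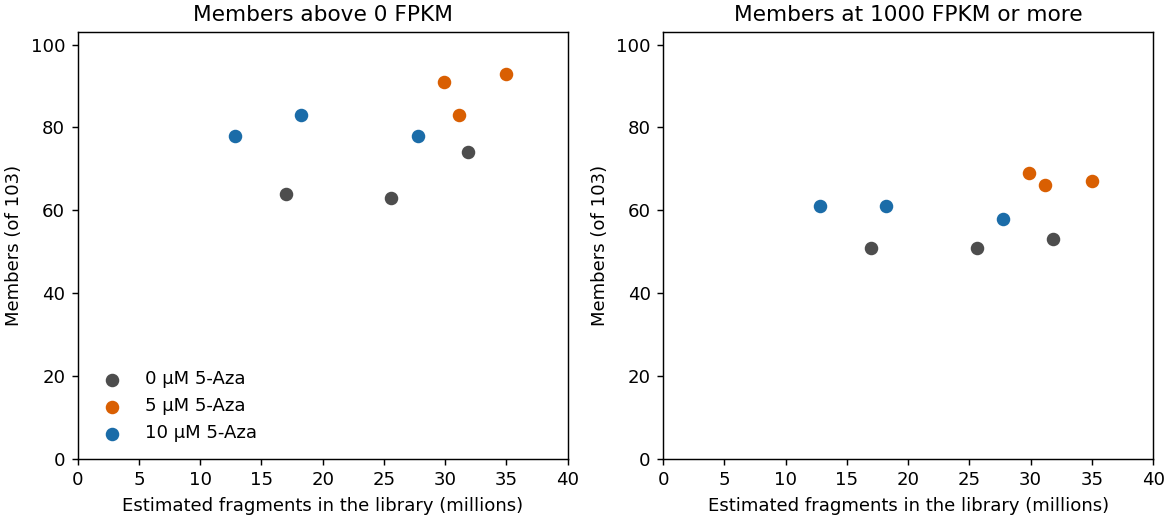
Number of members above 0 FPKM (left) and at 1000 FPKM or more (right), of 103, against the estimated fragments of each library, with 1 point per library and the 3 doses in colour. The 10 µM library with 12832936 fragments has 78 members above 0, and the control library with 31855451 has 74.

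A total of 50 members were above 0 in all 9 libraries, and 9 were above 0 in exactly 2. Just inside the limit, LINC00158 had 235 FPKM in 5 µM replicate 3 and 709.7 FPKM in 10 µM replicate 3. LINC00221 had 622 and 581 FPKM in 5 µM replicates 1 and 3, and LINC00264 had 182 FPKM in 5 µM replicate 1 and 258 FPKM in 10 µM replicate 3. These values correspond to 1 or 2 fragments each. Just outside, LINC00301, LINC00314 and LINC00347 were above 0 in 5 µM replicate 2 alone, at 523, 903 and 361 FPKM. In all, 9 symbols were above 0 in 1 library, 8 of them in a 5 µM library, and 30 were listed at 0 throughout.

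A total of 22 members (21.4%) were listed at 0 in all 3 control libraries, against 8.84% of the 19334 symbols that passed the same limit. Of these 22, 9 (40.9%) were above 0 in all 3 libraries at 5 µM, against 51.7% of the 1709 symbols listed at 0 in the control. The 9 include LINC00087, LINC00340, LINC00472, LINC00475, LINC00486 and LINC00521, which passed the limit only through the libraries at 5 µM. For these, detection at 5 µM is the rule itself. LINC00200, LINC00282 and LINC00336 were above 0 in all 6 treated libraries. Of the 22, 6 were listed at 0 again in all 3 libraries at 10 µM. LINC00113 was the one member listed at 0 in all 3 libraries at 5 µM. Among the 22 only LINC00200 had a mean of at least 10 fragments per library.

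**Figure D2:**
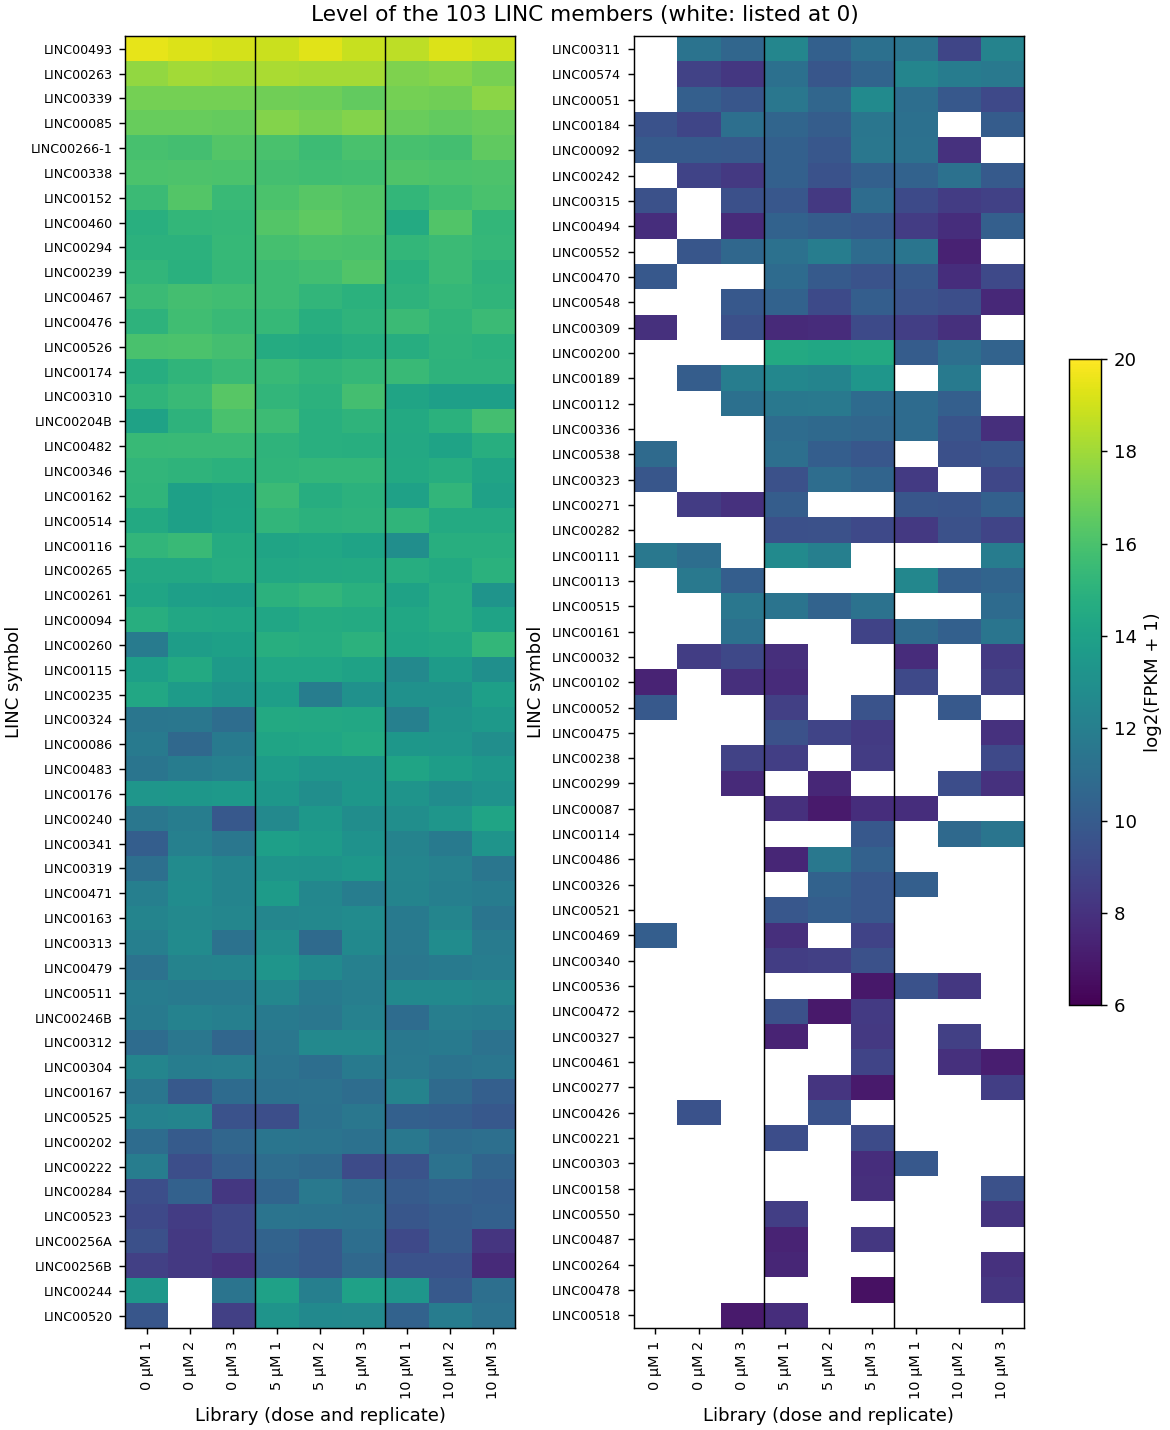
Level of the 103 members in each library as log2(FPKM + 1), in rows ordered by the number of libraries above 0 and then by mean FPKM, with white for a value listed at 0. The upper rows are filled in every library, and the lower rows hold more filled cells in the 3 columns at 5 µM than in those of the control.

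The symbols cover a mixed class. By the current RefSeq annotation 87 of the 103 members are long noncoding RNAs, 13 are protein-coding genes, 2 are transcribed pseudogenes and 1 had no entry. Members now read as protein-coding include LINC00493, named SMIM26, and LINC00116, named MTLN, which both encode small mitochondrial proteins. LINC00085 is SPACA6, a sperm membrane protein, and LINC00341 is SYNE3, the nuclear envelope protein nesprin-3. Others were renamed within the noncoding class, such as LINC00152 (CYTOR), LINC00263 (OLMALINC), LINC00338 (SNHG20) and LINC00340 (CASC15). On GRCh37, 92 members could be placed, of which 16 lie on chromosome 21 and 10 on chromosome 6.

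The level was carried by a few members. LINC00493 (SMIM26) was the highest, at 742135, 636605 and 569429 FPKM in the control, 488391, 670902 and 469297 FPKM at 5 µM and 402936, 619046 and 529480 FPKM at 10 µM. The ranges at the 3 doses overlap. The summed FPKM of the members was 2075128 to 2127320 in the control, 2202428 to 2311611 at 5 µM and 1639585 to 1960032 at 10 µM, so the 3 groups did not overlap. Without LINC00493 the sum was 1355928 to 1505699, 1640709 to 1806467 and 1236649 to 1400164 FPKM in the same order. The control and 10 µM then overlapped. With median-of-ratios scaling the mean sum of all members at 10 µM, 2024087, lay above that of the control, 1950991. The order of these 2 groups therefore depends on the scaling.

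By mean over the 9 libraries, among members with an annotated length of at least 300 nucleotides, LINC00263 (OLMALINC), LINC00339 and LINC00085 (SPACA6) came next. Their control levels, per length, were 250445 ± 27068 FPKM (SD, n = 3), 136831 ± 877 FPKM (SD, n = 3) and 107941 ± 3364 FPKM (SD, n = 3), and were farther apart than their spread. LINC00338 (SNHG20, a small nucleolar RNA host gene) had 67840.0 ± 2367 FPKM (SD, n = 3) in the control and LINC00152 (CYTOR) 56720.1 ± 17740 FPKM (SD, n = 3), a difference within the spread of the latter. The last 4 of the 10 highest were LINC00460, LINC00294, LINC00239 and LINC00467. In the control, LINC00239 (36560 ± 5558 FPKM, SD, n = 3), LINC00460 (36427 ± 6282 FPKM, SD, n = 3) and LINC00294 (36267 ± 5996 FPKM, SD, n = 3) did not differ beyond their spread, and LINC00467 stood higher, at 53487 ± 5469 FPKM (SD, n = 3). Annotated exons of LINC00294 overlap CSTF3 on the opposite strand, and those of LINC00338 overlap SEC14L1 on the same strand. Exons of LINC00493, LINC00339, LINC00152 and LINC00085 also overlap other annotated genes on the same strand. Those of LINC00339, LINC00152, LINC00085 and LINC00263 overlap annotated genes on the opposite strand. The levels of all these members are therefore uncertain.

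LINC00263 had 220491, 273153 and 257690 FPKM in the control, 301583, 281199 and 282290 FPKM at 5 µM and 159548, 176931 and 141147 FPKM at 10 µM. All 3 libraries at 10 µM were below all others, with a log2 difference from 5 µM of -0.86 ± 0.13 (SE) and limma adjusted p = 0.0119, which is under the 2-fold limit for a call. LINC00085 had 108865, 110746 and 104211 FPKM in the control, 174510, 140910 and 170571 FPKM at 5 µM and 113411, 100966 and 115160 FPKM at 10 µM. It was higher in all 3 libraries at 5 µM than in the other 6, by 0.58 ± 0.10 (log2 difference from the control, SE; limma adjusted p = 0.00507), also under the limit. None of these 10 members except LINC00460 was called in any comparison.

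The comparison of 5 µM with 0 µM asks which transcripts changed when 5-Aza was added. It called 17 members higher and 1 lower of 103 tested, by a limma adjusted p of at most 0.05 and a change of more than 2-fold on log2(FPKM + 1). The 17 are 16.5% of the members, against 14.1% of all 20051 symbols tested, and the 1 is 0.971%, against 2.17%. Of the 87 members that are now long noncoding RNAs, 11 (12.6%) were called higher, and of the 13 now protein-coding, 6 (46.2%). The shares over all members are close to those of all genes. None of these shares is independent of how members were chosen. LINC00087, LINC00340, LINC00472, LINC00475, LINC00486 and LINC00521, 6 of the 17, reached the 2 libraries that the rule asks for only through the libraries at 5 µM. Detection at 5 µM is what made them members, so their calls are no support. The other 11 would be members without those libraries. The median log2 difference of the members was 1.57 against 0.14 over all symbols. Of the 103 members, 19 passed the rule only through the libraries at 5 µM, and the 20051 symbols were under no such rule. The medians are therefore a description and no support. With 1000 in place of 1 added to the FPKM, which damps the values of a few fragments, the medians were 0.32 and 0.09, and 15 members were called higher and 1 lower, against 12.6% and 2.04% of all symbols. Of the 17 members, 7 had a mean of at least 10 fragments per library and are described first. Together with the 1 lower they were 8 of 44 such members, against 12.3% of symbols called higher and 2.8% called lower at that depth.

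Among the called members with at least 10 fragments, LINC00200 and LINC00324 had the largest rises, and LINC00526 was the 1 member called lower. LINC00200 is a noncoding gene on the plus strand of chromosome 10, at 1205708 to 1331621 in GRCh37. LINC00324 lies on chromosome 17 from 8123942 to 8127361 on the minus strand, and LINC00526 on chromosome 18 from 5236723 to 5238597 on the minus strand. The starts of these 3 genes are shown because the methylation that is lost under 5-Aza lies at CG dinucleotides. Each sequence runs from 250 bases before the RefSeq start to 50 bases after it in GRCh38.p14, 5′ to 3′ on the strand of the gene, with every CG in capitals. The windows are chr10:1159518-1159817 on the plus strand for LINC00200, chr17:8223994-8224293 on the minus strand for LINC00324 and chr18:5237980-5238279 on the minus strand for LINC00526.
LINC00200: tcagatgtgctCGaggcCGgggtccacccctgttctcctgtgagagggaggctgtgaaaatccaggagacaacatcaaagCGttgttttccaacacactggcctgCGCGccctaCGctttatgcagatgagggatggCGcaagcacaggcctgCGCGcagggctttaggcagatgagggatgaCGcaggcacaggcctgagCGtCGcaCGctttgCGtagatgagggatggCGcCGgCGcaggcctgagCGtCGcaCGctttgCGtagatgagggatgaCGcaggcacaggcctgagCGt
LINC00324: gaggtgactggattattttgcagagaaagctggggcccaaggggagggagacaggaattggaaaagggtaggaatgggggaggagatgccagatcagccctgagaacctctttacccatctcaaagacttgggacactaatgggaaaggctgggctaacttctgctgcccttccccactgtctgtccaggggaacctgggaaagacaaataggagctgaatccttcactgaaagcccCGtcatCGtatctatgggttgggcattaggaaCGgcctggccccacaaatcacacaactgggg
LINC00526: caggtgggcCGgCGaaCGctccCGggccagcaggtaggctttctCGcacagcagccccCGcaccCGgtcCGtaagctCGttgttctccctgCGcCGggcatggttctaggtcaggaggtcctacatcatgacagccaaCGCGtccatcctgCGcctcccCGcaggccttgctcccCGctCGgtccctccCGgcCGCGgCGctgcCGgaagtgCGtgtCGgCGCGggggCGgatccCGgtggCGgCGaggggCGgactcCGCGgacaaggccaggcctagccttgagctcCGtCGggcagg
The LINC00200 window holds 23 CG, that of LINC00324 holds 3 and that of LINC00526 holds 35. Over all 35116 promoters of the table the median was 14, and 48.9% held at least 15. The counts describe these letters, and methylation was not measured here.

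LINC00200 was listed at 0 in all 3 control libraries. It had 23119, 21025 and 22944 FPKM at 5 µM, which correspond to 162, 140 and 172 fragments, and 1080.4, 2222 and 1412 FPKM at 10 µM, which correspond to 4, 13 and 7 fragments. The 3 groups did not overlap. The limma adjusted p for 5 µM against 0 µM was 0.000133, and no fold is given against a group listed at 0. Annotated exons of LINC00200 overlap WDR37 on the same strand and ADARB2 on the opposite strand, and whether counting used strand is not given in the sources used here. WDR37 had between 78944 and 98541 FPKM in the 9 libraries, with a log2 difference at 5 µM of 0.20 ± 0.07 (SE; limma adjusted p = 0.0647). ADARB2 was at most 144 FPKM in any library.

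LINC00324 had 2837, 2953 and 2088 FPKM in the control, 22918, 22167 and 21422 FPKM at 5 µM and 4465, 9889.7 and 11911 FPKM at 10 µM. All 3 libraries at 5 µM were above the other 6, and all 3 at 10 µM were above the control. At 5 µM the mean FPKM was 8.44 times that of the control, with a log2 difference of 3.09 ± 0.22 (SE), limma adjusted p = 0.000312. The nearest protein-coding start is that of AURKB, a mitotic kinase, at 13443 bases on the same strand. AURKB had 17582 ± 4234 FPKM (SD, n = 3), 22189 ± 574 FPKM (SD, n = 3) and 15308 ± 4609 FPKM (SD, n = 3) at 0, 5 and 10 µM and was not called in any comparison.

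LINC00526 fell. It had 64195, 66547 and 57187 FPKM in the control, 24656, 23505 and 27115 FPKM at 5 µM and 27452, 35785 and 31165 FPKM at 10 µM. Every treated library was below every control library. The log2 difference at 5 µM was -1.32 ± 0.11 (SE), limma adjusted p = 0.000464, and at 10 µM it was -0.999 ± 0.17 (SE), limma adjusted p = 0.0141, just inside the 2-fold limit and not called. The nearest protein-coding gene, AKAIN1 (C18orf42 in the files), was listed at 0 in all 9 libraries. Annotated exons of LINC00526 overlap LINC00667 on the opposite strand and ENSG00000265091 on the same strand, so its level is uncertain.

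LINC00086 had 3526, 1713 and 3413 FPKM in the control, 18372, 19643 and 23751 FPKM at 5 µM and 10913, 10534 and 7736 FPKM at 10 µM, so the 3 groups did not overlap. Its log2 difference from the control was 2.90 ± 0.34 (SE) at 5 µM, limma adjusted p = 0.00124. The symbol now stands for SMIM10L2A and SMIM10L2B, a pair of closely similar protein-coding genes between which reads can be split, so its level is uncertain. LINC00087, an earlier symbol of the same pair, was listed at 0 in the control and had 244, 129 and 228 FPKM at 5 µM.

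LINC00341, now SYNE3 (chromosome 14, 95873603 to 95982987 in GRCh37, minus strand), had 1168, 4448 and 3008 FPKM in the control, 15173, 13157 and 8850.4 FPKM at 5 µM and 4825, 3344 and 9609 FPKM at 10 µM. Its 5 µM libraries were above the control ones, and the 10 µM libraries overlapped both. It differed from the control by 2.27 ± 0.54 at 5 µM (log2, SE; limma adjusted p = 0.0178), and the call was lost without 5 µM replicate 1 (2.11, adjusted p = 0.074) or without 5 µM replicate 2 (2.21, adjusted p = 0.0665). C14orf49, an older symbol of the same gene, had 7220.3, 7915 and 6063 FPKM in the control and 13559, 12090.3 and 15674 FPKM at 5 µM. Its log2 difference of 0.96 ± 0.20 (SE; limma adjusted p = 0.0115) was under the limit.

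LINC00483, now ANKRD40CL (chromosome 17, 48838390 to 48844918 in GRCh37, minus strand), had 2825, 3742 and 4410.5 FPKM in the control, 13703, 10300.1 and 10613 FPKM at 5 µM and 18525, 14068 and 11069 FPKM at 10 µM. All 6 treated libraries were above the control, and the treated groups overlapped. It differed from the control by 1.67 ± 0.27 at 5 µM (log2, SE; limma adjusted p = 0.00399). These values rest on 3, 6 and 10 fragments in the control and on 35, 25 and 29 fragments at 5 µM.

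LINC00460, which is often raised in carcinomas, lies on chromosome 13 from 107026825 to 107036663 (GRCh37, plus strand). It had 29302, 38812 and 41168 FPKM in the control, 78501, 95429 and 79283 FPKM at 5 µM and 23909, 75650 and 38904 FPKM at 10 µM. The 5 µM libraries were above the control ones, and the 10 µM libraries were all below those at 5 µM and on both sides of the control range. The log2 difference at 5 µM was 1.22 ± 0.16 (SE), limma adjusted p = 0.0018. EFNB2, the nearest protein-coding gene, encodes an ephrin ligand and had a log2 difference of -0.33 at 5 µM.

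LINC00261, on chromosome 20 from 22528301 to 22559280 (GRCh37, minus strand), lies beside FOXA2, which encodes a transcription factor of endoderm, with 6813 bases between their starts. It had 19471, 15475 and 14742 FPKM in the control, 32581, 38474 and 30139.7 FPKM at 5 µM and 16980.4, 26338 and 9726 FPKM at 10 µM. The 5 µM libraries were above all others, and the 10 µM libraries overlapped the control. The log2 difference at 5 µM was 1.03 ± 0.17 (SE), limma adjusted p = 0.00414, just past the 2-fold limit. It was under that limit without control replicate 2 (0.99), without control replicate 3 (0.95) or without 5 µM replicate 2 (0.93). FOXA2 had 49005 ± 7453 FPKM (SD, n = 3), 67718 ± 2478 FPKM (SD, n = 3) and 43555 ± 10497 FPKM (SD, n = 3) at 0, 5 and 10 µM and was not called in any comparison.

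**Figure D3:**
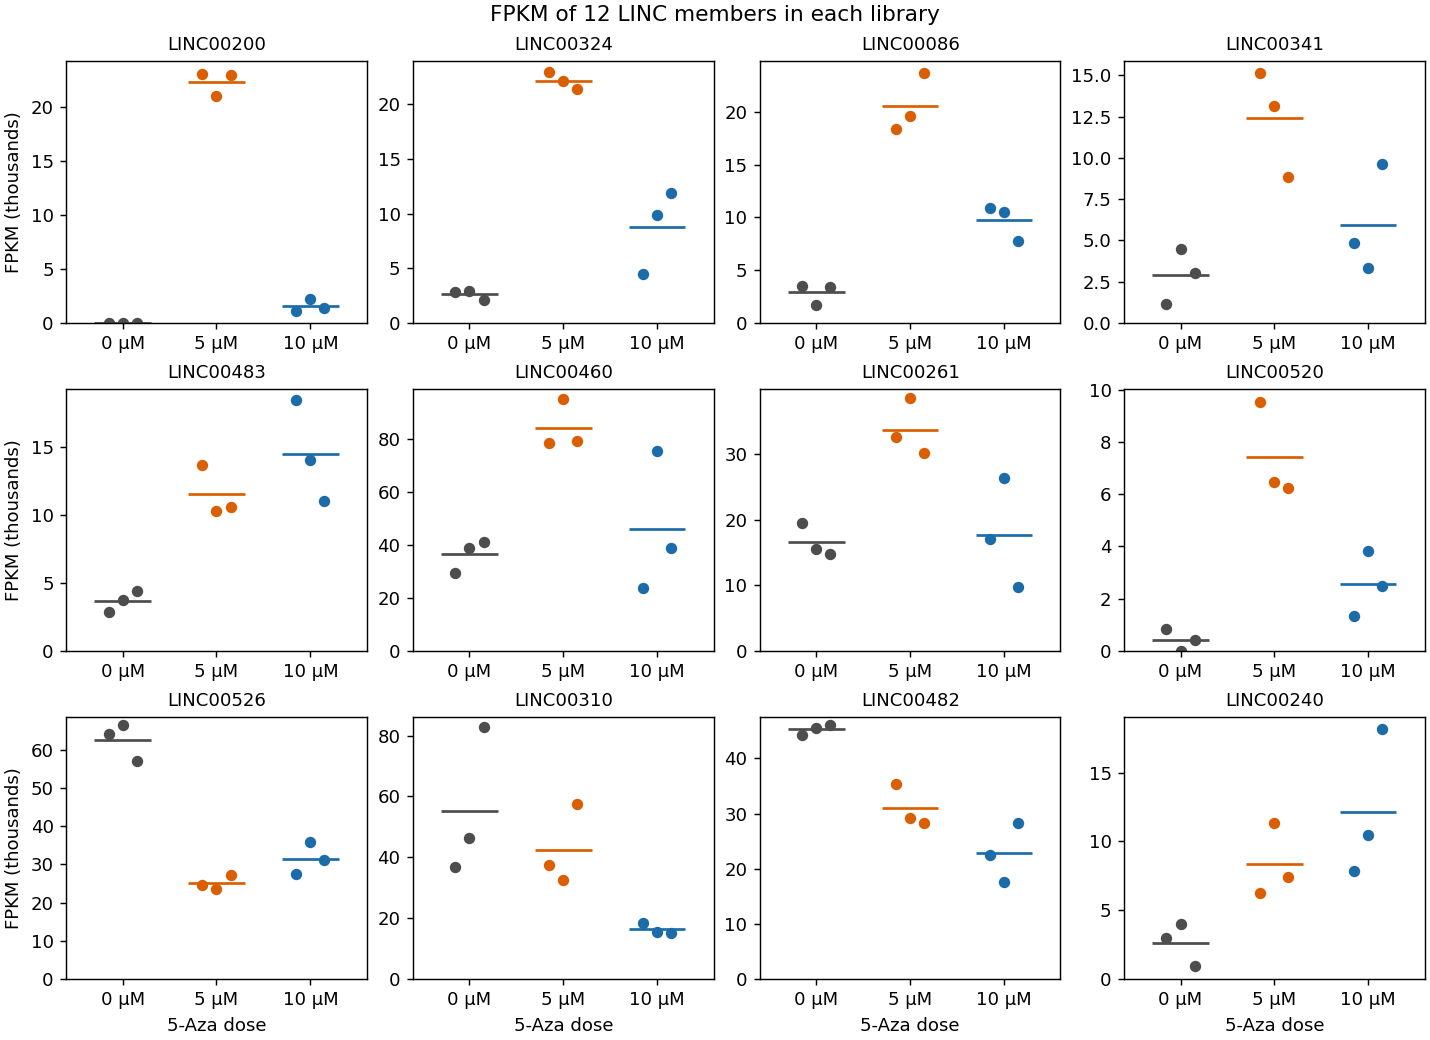
FPKM divided by 1000, on linear axes from 0, of 12 members in each library at 0, 5 and 10 µM 5-Aza, with 1 point per library and a line at the group mean (n = 3). In the panel of LINC00200 the 5 µM points lie between 21025 and 23119 FPKM and the control points at 0, and in that of LINC00526 every treated point lies below every control point.

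The other 10 members called higher at 5 µM had means under 10 fragments per library. LINC00336 was listed at 0 in the control and had 2008, 1761 and 1564 FPKM at 5 µM, from 12, 10 and 10 fragments, and 1901, 802 and 237 FPKM at 10 µM. Its limma adjusted p at 5 µM was 0.000475, and it was also called with 1000 added. GGNBP1, whose exons overlap it on the opposite strand, had 0 to 909 FPKM in the control and 0 to 425 FPKM at 5 µM. LINC00521, now the protein-coding CCDC197, was listed at 0 in the control and at 10 µM and had 896, 1161 and 902 FPKM at 5 µM. LINC00472, which is known for low levels in breast tumours, had 699, 123 and 327 FPKM at 5 µM, from 6, 1 and 3 fragments, and was listed at 0 in the other 6 libraries. OGFRL1, whose exons overlap it on the opposite strand, had 415, 874 and 776 FPKM at 5 µM, and 999, 0 and 0 FPKM in the control. LINC00521 and LINC00472 became members only through these libraries, so no p is given. LINC00087, LINC00282, LINC00340, LINC00475 and LINC00486 were likewise listed at 0 in the control, and LINC00256B and LINC00523 were above 0 in all 9 libraries. Of the 17 members called, 8 were called with 1000 added, and 14 kept the call whichever library was left out. Besides LINC00341 and LINC00261, LINC00256B lost it, without control replicate 2 (adjusted p = 0.0546) or without 5 µM replicate 1 (0.0638) or 3 (0.0766).

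LINC00520 was not called although its groups did not overlap. It had 850.0 FPKM, 0 and 398 FPKM in the control, 9542, 6470 and 6226 FPKM at 5 µM and 1338, 3809 and 2498 FPKM at 10 µM. The estimate from annotated length gives 6.7, 4.3 and 4.6 fragments at 5 µM and no more than 0.2 in any control library. A value above 0 needs at least 1 fragment, so this estimate is too low. The fragment number of LINC00520 is therefore uncertain. With its 1 control value at 0 the log2 difference was 6.70 ± 2.50 (SE), limma adjusted p = 0.0782. With 1000 added the difference was 2.59, limma adjusted p = 0.000544. In total 35 of the 103 members were higher in all 3 libraries at 5 µM than in all 3 of the control, against 29.4% of all symbols tested. A further 6 were lower, against 23.2%. The 35 include LINC00087, LINC00340, LINC00472, LINC00475, LINC00486 and LINC00521, which became members only through the libraries at 5 µM. The count is therefore a description and no support. For a single member without overlap the exact permutation p is 0.1 (two-sided), the smallest that 3 against 3 allows.

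**Figure D4:**
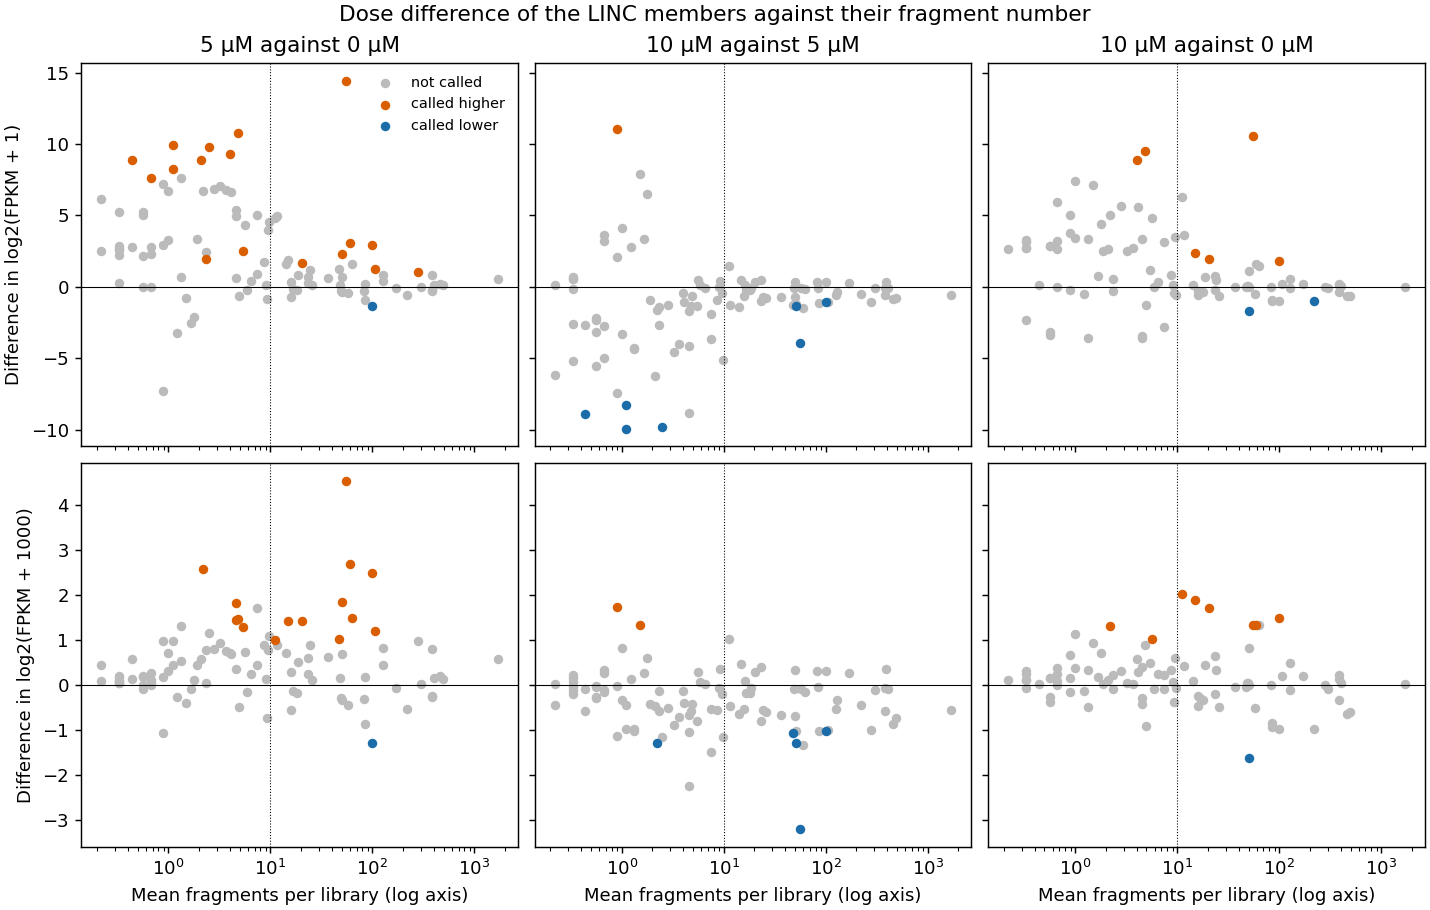
Difference between doses on log2(FPKM + 1), upper row, and on log2(FPKM + 1000), lower row, against the mean fragments per library (log axis), for 102 members with a fragment estimate, in 3 columns for the 3 comparisons. The dotted line marks 10 fragments. Differences beyond 5 on the upper axis lie left of that line, except those of LINC00200 against the control, whose size is set by the 1 added to values of 0, and of LINC00574, which was not called. They shrink in the lower row.

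The comparison of 10 µM with 5 µM asks what raising the dose changed. It called 1 member higher and 7 lower of 103 tested. Of all 20085 symbols, 0.129% were called higher and 4.82% lower, and the 7 members are 6.8%. Of the 87 members now long noncoding RNAs, 5 (5.75%) were called lower, and of the 13 now protein-coding, 2 (15.4%). Of the 7, 4 became members only through detection at 5 µM, so their calls are no support. The median log2 difference of the members was -0.71 against -0.31 over all symbols, and with 1000 added it was -0.28 against -0.22. The members include the 19 that passed the rule only through the libraries at 5 µM, so these medians are a description and no support. In that setting 2 members were called higher and 5 lower, against 0.144% and 5.18% of all symbols. Without overlap 6 of the 103 members were higher and 29 lower, against 4.37% and 25.3%. The 29 include the 4 that became members only through detection at 5 µM. Among the 44 members with at least 10 fragments, limma called 3 lower, against 3.84% of such symbols, and 0 higher, against 0.0564%, with 1 higher at an unadjusted p under 0.05. Scaling by the median of ratios moved the median of all symbols by 0.20 in this comparison, and then 6 members were called lower and 1 higher. The number called lower was 15 without 10 µM replicate 2, 4 without 5 µM replicate 1 and 1 without 5 µM replicate 3.

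LINC00200 fell by 3.89 ± 0.35 on the log2 scale (SE), from 140 to 172 fragments per library at 5 µM to 4 to 13 at 10 µM (limma adjusted p = 0.00357). The call held whichever library was left out. LINC00310 (chromosome 21, 35530024 to 35562545 in GRCh37, plus strand) had 36792, 46398 and 82749 FPKM in the control, 37509.6, 32361 and 57363 FPKM at 5 µM and 18382, 15291 and 15176 FPKM at 10 µM. All 3 libraries at 10 µM were below the other 6, with a log2 difference from 5 µM of -1.34 ± 0.25 (SE), limma adjusted p = 0.0246. Without 10 µM replicate 3 or without 5 µM replicate 1, 2 or 3 its adjusted p was 0.0598, 0.0886, 0.0557 and 0.0858. SLC5A3, the nearest protein-coding gene and an inositol transporter, had 490101 ± 139819 FPKM (SD, n = 3) in the control, 332201 ± 116065 FPKM (SD, n = 3) at 5 µM and 145428 ± 29216 FPKM (SD, n = 3) at 10 µM. It was called lower at 10 µM against 0 µM, with a log2 difference of -1.74.

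LINC00086 was lower at 10 µM than at 5 µM by -1.09 ± 0.24 (log2 difference, SE; limma adjusted p = 0.0425). This call was lost under 5 of the 6 fits without 1 library, with 10 µM replicate 1 or 3 or any 5 µM replicate left out (adjusted p between 0.055 and 0.205). The other 4 calls were LINC00340, LINC00472, LINC00486 and LINC00521, which were above 0 at 5 µM and listed at 0 in all 3 libraries at 10 µM. They were listed at 0 in the control too and became members only through the libraries at 5 µM, so their values are a description and no p is given. LINC00486 had 178, 3097 and 1292 FPKM there, and none of the 4 was called with 1000 added. Without 5 µM replicate 3 all 4 lost the call, LINC00472 also without 5 µM replicate 1, and LINC00486 also without 5 µM replicate 2. LINC00113 was the member called higher. It was listed at 0 at 5 µM, had 5798, 1223 and 1443 FPKM at 10 µM from 3, 1 and 1 fragments, and had 3253 and 1150.2 FPKM in control replicates 2 and 3. The limma adjusted p of 0.00522 does not include the counting error of 5 fragments.

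The comparison of 10 µM with 0 µM asks how the higher dose differed from the vehicle. It called 6 members higher and 2 lower of 97 tested, and the other 6 members were listed at 0 in both groups. The shares are 6.19% and 2.06%, against 4.07% and 3.4% of all 18928 symbols tested. Of 82 tested members now long noncoding RNAs, 3 (3.66%) were called higher, and of 12 now protein-coding, 3 (25%). The median log2 difference of all tested members was 0.23 against -0.15 over all symbols. Without overlap 15 members were higher and 8 lower, against 14.4% and 26.7%. With 1000 added 8 were called higher and 1 lower, against 4.54% and 3.53%. Of the 44 members with at least 10 fragments, 4 were called higher and 2 lower, against 4.22% and 4.33% of such symbols. Scaling by the median of ratios moved the median of all symbols by 0.23, and the split was then 7 higher and 1 lower. The number called higher was 3 without control replicate 2 or without 10 µM replicate 3. The number called lower was 1 without control replicate 1 or 10 µM replicate 3, 0 without control replicate 2 or 10 µM replicate 1, and 3 without 10 µM replicate 2.

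LINC00200 was called higher at 10 µM against 0 µM on 24 fragments in all (limma adjusted p = 0.00697), and the call held whichever library was left out. LINC00483 was higher by 1.98 ± 0.35 (log2 difference, SE; limma adjusted p = 0.0159), but not called without control replicate 2 (adjusted p = 0.0527) or 10 µM replicate 1 (adjusted p = 0.056). LINC00086 was higher by 1.81 ± 0.42 (log2 difference, SE; limma adjusted p = 0.0322). Its adjusted p lay between 0.0581 and 0.0941 in the 5 fits, all but that without 10 µM replicate 2, in which the call was lost.

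LINC00240 (chromosome 6, 26924711 to 27027528 in GRCh37, plus strand) had 2996, 3968 and 935 FPKM in the control, 6227, 11358 and 7372 FPKM at 5 µM and 7857, 10441 and 18191 FPKM at 10 µM. Its annotated exons overlap LARRPM on the opposite strand and TRNAI2 on the same strand, so its level is uncertain. All 6 treated libraries were above the control, and the treated groups overlapped. At 10 µM it differed from the control by 2.36 ± 0.62 (log2, SE; limma adjusted p = 0.0459), and the call was lost with any 1 of the 6 libraries left out (adjusted p between 0.0587 and 0.147). HIST1H2BJ, the histone gene nearest to it, had 34825 ± 7329 FPKM (SD, n = 3) in the control, 47370.5 ± 3277 FPKM (SD, n = 3) at 5 µM and 14094 ± 6732 FPKM (SD, n = 3) at 10 µM. It was called lower at 10 µM against 5 µM (log2 difference -1.89, limma adjusted p = 0.0363) and not called at 10 µM against 0 µM (limma adjusted p = 0.0582).

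LINC00336 and LINC00282, now TMEM272, were listed at 0 in the control and were called higher on 11 and 13 fragments in all. The adjusted p of LINC00336 was 0.055 without 10 µM replicate 1, and that of LINC00282 was 0.0629 without 10 µM replicate 3. LINC00310 was lower by -1.68 ± 0.31 (log2 difference, SE; limma adjusted p = 0.0179), with an adjusted p of 0.0588, 0.056 and 0.0698 without control replicate 2, 10 µM replicate 1 and 10 µM replicate 3.

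LINC00482 (chromosome 17, 79277571 to 79283078 in GRCh37, minus strand) had 44244, 45602 and 46103 FPKM in the control, 35406, 29276 and 28368 FPKM at 5 µM and 22411, 17624 and 28276 FPKM at 10 µM. The 3 groups did not overlap, and the levels were lower at each higher dose. The log2 difference at 10 µM was -1.02 ± 0.21 (SE), limma adjusted p = 0.0246. The call was lost without any 1 library other than 10 µM replicate 3, with log2 differences between -1.04 and -0.85, and under scaling by the median of ratios (-0.78, adjusted p = 0.0742).

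Over the 3 comparisons 22 of the 103 members were called at least once, and 11 of these had a mean of at least 10 fragments. LINC00200 and LINC00086 were called in all 3. Of the 44 members with at least 10 fragments, 26 had their highest group mean at 5 µM, and 4 had a mean above the control at 5 µM and no lower at 10 µM. In 7 the mean was lower at each step, and in 7 it was lower at 5 µM and no lower at 10 µM. The comparisons share groups, so these orders are a description.

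Several LINC RNAs that have been studied in tumours were not called. LINC00152 (CYTOR) had 47023, 77195 and 45942 FPKM in the control, 66082, 85627 and 74567 FPKM at 5 µM and 39198, 53097 and 64315 FPKM at 10 µM, and the groups of the control and 5 µM overlapped. LINC00467 had 47609, 58425 and 54429 FPKM in the control and 34155, 40438 and 37031 FPKM at 10 µM, a log2 difference of -0.52 ± 0.16 (SE; limma adjusted p = 0.0652). LINC00511 had 3716, 3445 and 3306 FPKM in the control and 6432, 6290.2 and 5459 FPKM at 10 µM, with no overlap and a log2 difference of 0.79 ± 0.33 (SE; limma adjusted p = 0.136). LINC00312 was between 1602 and 6204 FPKM in the 9 libraries and was not called. LINC00461 (MIR9-2HG), the host of a microRNA of neural tissue, and LINC00518 were above 0 in 3 and 2 libraries, at no more than 471 FPKM.

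A tested neighbour was found for 81 members, 74 genes in all, since some members share one. At 5 µM against 0 µM the neighbours of 11 members were called higher and that of 1 lower, against 14.1% and 2.17% of all symbols. Of the 14 members called higher with a tested neighbour, 2 had a neighbour called higher. These were LINC00523 beside DLK1, an imprinted gene, and LINC00521 beside ASB2. LINC00521 became a member only through the libraries at 5 µM, so its call is no support. The same holds for LINC00340, LINC00472, LINC00475 and LINC00486 among the 14. LINC00523 itself had 539, 357 and 505 FPKM in the control and 2690.3, 2595 and 2515 FPKM at 5 µM, from 11 or 12 fragments each, with a log2 difference of 2.50 (limma adjusted p = 0.00496). At 10 µM against 5 µM none of the 6 members called lower with a tested neighbour had a neighbour called by limma. These 6 include LINC00340, LINC00472, LINC00486 and LINC00521. At 10 µM against 0 µM, SLC5A3 beside LINC00310 was the 1 case of both called, of 2 members called lower and 4 called higher. The median distance between starts was 51299 bases, with 7 members within 1000 bases.

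Promoters were matched for 68 members. Their windows held a median of 7 CG, against 14 in the table, and 26.5% held at least 15. Among the members called higher at 5 µM, 4 of 11 (36.4%) held at least 15 CG, and among those not called 13 of 56 (23.2%). The 4 include LINC00340 (19 CG) and LINC00472 (31 CG), which became members only through the libraries at 5 µM and are no support. LINC00486 (4 CG), also among the 11, became a member in the same way. Over all tested symbols with a promoter the shares were 57.4% of 1424 called higher and 73% of 8933 not called. These are descriptions on few members, without a test.

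Long noncoding RNAs with other names moved in both directions. Of a list of 40, looked up by name, 34 were in the files. CYTOR was not counted among the 34, since the files hold it as LINC00152. At 5 µM against 0 µM 5 of 34 tested were called higher and 5 lower, against 14.1% and 2.17% of all symbols tested. H19, an imprinted RNA, had a mean of 1236 FPKM in the control, 432427 FPKM at 5 µM and 68478 FPKM at 10 µM, and MEG3, UCA1, MIAT and DLEU2 were the others called higher. GAS5, SNHG5, SNHG8 and SNHG15, which host small nucleolar RNAs, and TP53TG1 were called lower. At 10 µM against 5 µM 0 of 33 tested were called higher by limma and 3 lower, against 0.129% and 4.82% of all symbols. At 10 µM against 0 µM 1 of 33 was called higher and 7 lower, against 4.07% and 3.4%.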

How the data were processed

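Purified mRNA of 9 HT-29 cultures was sequenced in paired ends. The deposited FPKM values were computed by the authors with Cufflinks from TopHat alignments to hg19, after read filtering with FASTX-Toolkit. Libraries were made with a TruSeq RNA kit and aligned with the default settings for read pairs. The library term of the FPKM, the annotation version and the strand setting of Cufflinks are not given in the sources used here, so FPKM is used as a relative level and a 0 can be a failed estimate.

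Values of repeated symbols were summed, transformed as log2(FPKM + 1) and tested with limma 3.58.1 (R 4.3.3; eBayes with trend) on the 6 libraries of each comparison, for symbols reaching 10 FPKM. Log2 differences are on that scale unless 1000 is said to be added. The added 1 hardly damps the change of low values, since 1 fragment is worth far more FPKM. A 0 beside larger values therefore widens the difference, even on few fragments. A symbol was called where its p, adjusted after Benjamini-Hochberg over all symbols, did not exceed 0.05 and the log2 difference was larger than 1 in size. Exact permutation tests of 3 against 3 cannot go below p = 0.1.

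Low values step in whole fragments. Each library's scale was read from microRNA genes 110 nucleotides long, whose 46 values above 0 were all whole within 0.01. Fragments came out whole (within 0.05) for 82 members and were estimated from annotated length for 20. These are estimates, those from length can be too low, and limma does not model their counting error. Estimates by length alone, available for all genes, served the limit of 10 fragments used as an alternative.

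Members and lists were chosen with earlier results of these data known. Named were, per comparison, up to 8 rises and 4 falls among called members with non-overlapping replicates and at least 10 mean fragments, up to 2 of each among the other called members, the 10 highest members of at least 300 nucleotides, a list of studied LINC RNAs, members at the detection limit, and nearest protein-coding genes. Members named outside this rule (LINC00087, LINC00116, LINC00256B, LINC00340, LINC00475, LINC00523 and LINC00574) were chosen after their values were seen. Positions are GENCODE on GRCh37, promoters RefSeq on GRCh38.p14, matched by symbol. Alternatives were another pseudocount, filter, scaling or threshold, a fit over all 9 samples, the replicate block, the largest of repeated entries and each library left out. Python 3.11.15, pandas 2.3.3, numpy 2.4.6, scipy 1.17.1 and matplotlib 3.10.9 were used.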

Additional observations from a re-analysis of the deposited data

Results flagged for a closer look

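Of the 39 LINC symbols that did not pass the detection limit, 9 were above 0 in 1 treated library and listed at 0 in the control, and are listed because they lie outside the comparisons. At 5 µM, replicate 1 had 602 FPKM of LINC00466. Replicate 2 had 523 FPKM of LINC00301, 903 FPKM of LINC00314 and 361 FPKM of LINC00347. Replicate 3 had 328 FPKM of LINC00410, 198 FPKM of LINC00477, 256 FPKM of LINC00488 and 934 FPKM of LINC00575. At 10 µM, replicate 3 had 263 FPKM of LINC00535. No test was run on them.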

How the results depend on the processing

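The counts of members called higher and lower were 17 and 1 (5 µM against 0 µM), 1 and 7 (10 µM against 5 µM) and 6 and 2 (10 µM against 0 µM). With a mean of at least 10 estimated fragments, which tests fewer genes, 9 were higher at 5 µM against 0 µM and 0 at 10 µM against 5 µM. With limma's treat against a log2 change of 1 the counts were 11 and 0, 1 and 4, and 1 and 0. With 1000 added, 2 were higher at 10 µM against 5 µM and 1 lower at 10 µM against 0 µM, and with median-of-ratios scaling 1 was lower at 10 µM against 0 µM. With the replicate block 2 were lower at 10 µM against 5 µM, and the other counts of calls moved by no more than 1.5 times. Same-numbered libraries deviated from their group means with correlations between -0.074 and 0.086 over 15278 symbols, so the numbers were not taken to pair the cultures. Leaving out 1 library gave 16 to 22 higher and 1 to 2 lower at 5 µM against 0 µM, 1 to 2 higher and 1 to 15 lower at 10 µM against 5 µM, and 3 to 6 higher and 0 to 3 lower at 10 µM against 0 µM. There were 2 lower at 5 µM against 0 µM without control replicate 1 or 3, and 2 higher at 10 µM against 5 µM without 5 µM replicate 1 or 3. The cause of these differences was not tested. At a limit of 1000 FPKM the members detected were 51.7, 67.3 and 60.0 per library at 0, 5 and 10 µM. Their mean summed FPKM was 1950991, 2166835 and 2024087 with median-of-ratios scaling, where 10 µM was no longer the lowest, and 1450780, 1726769 and 1325933 without LINC00493. Single-member differences were recomputed under the same alternatives, and no called one changed direction. Depth limits 58 members with means under 10 fragments per library.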
